A study of Mus musculus with 6 samples.

Results

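The genes of procollagen propeptide processing were followed in mouse Achilles tendon tissue after amputation of the tendon or after a sham operation. They were chosen by name as the tolloid proteinases Bmp1, Tll1 and Tll2, the proteinase enhancers Pcolce and Pcolce2, and the procollagen N-proteinases Adamts2, Adamts3 and Adamts14. All 8 were present among the 21878 genes of the deposited count table. Amputation 1 to 3 are the libraries titled HO and sham 1 to 3 those titled Control, with 3 libraries per group. The series title places the comparison in work on trauma-induced heterotopic ossification, bone formed outside the skeleton. The labels name no genetic change or drug in either group. The sources used here do not give strain, age or time after surgery. They also do not say whether replicates came from separate animals, so each p-value reflects variation among these libraries, part of which may be technical.

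Fibrillar collagens are secreted as procollagens with a propeptide at each end of the rod-like triple helix. Removal of the C-propeptide by tolloid proteinases lets the molecules assemble into fibrils, and the enhancer proteins bind procollagen and speed this step without cutting it themselves. Removal of the N-propeptide by ADAMTS proteinases shapes the fibrils, and loss of ADAMTS2 causes fragile skin in cattle (dermatosparaxis) and in people. Tendon consists mainly of type I collagen fibrils made in this way.

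In GRCm38.p6, Bmp1 lies on chromosome 14 (70474555 to 70520716, minus strand), Tll1 on chromosome 8 (64013098 to 64206008, minus) and Tll2 on chromosome 19 (41080940 to 41210848, minus). Pcolce lies on chromosome 5 (137605105 to 137611522, minus) and Pcolce2 on chromosome 9 (95637628 to 95695551, plus). Adamts2 lies on chromosome 11 (50602085 to 50807573, plus), Adamts3 on chromosome 5 (89673841 to 89883668, minus) and Adamts14 on chromosome 10 (61197112 to 61273419, minus). Values are given per gene, so the short BMP1 and long mammalian tolloid forms that Bmp1 makes by splicing were not separated. Pcolce shares 112 exonic bases with Fbxo24 on the same strand and 112 with Gm36266 on the other, of 3823 in GENCODE M21, so a small part of its counts is uncertain. The other 7 members share no exonic base with another annotated gene.

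Start regions of 3 genes are shown because these genes changed most or in opposite directions: the paralogues Pcolce and Pcolce2, and Adamts2. Each is the part of the 250 bases before the RefSeq start that lies outside annotated exons, on the gene's strand, with the GC box (GGGCGG on either strand) in capitals.
Pcolce (chr5:137611523-137611654): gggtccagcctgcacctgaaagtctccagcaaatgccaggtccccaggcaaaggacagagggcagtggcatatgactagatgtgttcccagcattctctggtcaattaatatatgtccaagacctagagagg
Pcolce2 (chr9:95637378-95637600): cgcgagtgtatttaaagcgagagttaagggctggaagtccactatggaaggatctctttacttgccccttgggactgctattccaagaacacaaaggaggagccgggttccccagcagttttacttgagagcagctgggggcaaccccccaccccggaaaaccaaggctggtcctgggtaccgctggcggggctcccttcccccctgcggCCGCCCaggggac
Adamts2 (chr11:50601835-50602083): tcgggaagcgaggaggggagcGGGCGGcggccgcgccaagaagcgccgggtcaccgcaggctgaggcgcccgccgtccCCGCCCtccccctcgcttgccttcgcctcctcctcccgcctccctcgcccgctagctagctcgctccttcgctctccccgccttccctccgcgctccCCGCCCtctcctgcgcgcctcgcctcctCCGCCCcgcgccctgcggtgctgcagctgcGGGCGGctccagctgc

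RefSeq promoter entries were found for 7 of the 8 members, and Bmp1 had none among the promoters used. A GC box was present in 6 of the 7 windows of 250 bases, against 32.7% of 32851 promoter windows of that length. The Adamts2 window held 5, Adamts14 held 6, and Pcolce and Pcolce2 held 1 each, at -60 and -40 from the start. The Pcolce box falls in an exon of other Pcolce transcripts and is therefore not printed above. No member window held a TATA box (TATAAA, 12.4% of all windows) or an AP-1 site (TGANTCA, 6.75%), each searched on both strands. Tll1 and Tll2 held 1 CCAAT box (CCAAT, 33.9%) each, and Tll2 held the only RUNX site (TGTGGT, 14.1%) among the members. The windows of Adamts2, Adamts3 and Adamts14 were 78.0%, 78.0% and 76.4% G and C, that of Tll1 was 43.2%, and the median over all windows was 52.4%. A match or its lack describes these letters and says nothing of what binds there.

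The libraries held 28410231, 30715022 and 31346730 counts in amputation 1 to 3, and 23916839, 26176650 and 27140226 in sham 1 to 3, so that 1 count stood for 0.0322 to 0.0409 CPM (TMM-normalized counts scaled to a common library size). All 8 tendon markers were detected in every library, 4 were called higher, and their summed level was 6881 to 17180 CPM after amputation and 2315 to 5890 CPM in sham. Mkx, Fmod, Comp and Egr1 were not called. The 35 genes of the skeletal muscle list, all detected in every library, took 1.77%, 0.558% and 16.8% of the counts in amputation 1 to 3, and 21.3%, 20.9% and 23.1% in sham 1 to 3. By edgeR's quasi-likelihood test 0 of these 35 genes were called, with 4 lower at an unadjusted p under 0.05, 0 called in limma-voom, 12 lower in DESeq2, 12 and 13 lower in limma on log2(FPKM + 1) and log2(FPKM + 0.1), 5 lower with the replicate block and 35 of 35 lower without amputation 3. The summed level of 7 fibroblast markers was 15640 to 31710 CPM after amputation and 3429 to 5402 CPM in sham, with 4 of 7 called higher. Of these sums Col3a1, itself a fibrillar procollagen, held 11850 to 24120 CPM after amputation and 1333 to 1784 CPM in sham. The summed level of 8 chondrocyte markers was 3119 to 13250 CPM after amputation and 377 to 1345 CPM in sham, with 6 of 8 called higher. Of these sums Col2a1 held 861 to 5596 CPM after amputation and 5.04 to 17.4 CPM in sham. Comp, counted in the tendon list too, held 1141 to 3675 CPM after amputation and 331 to 1265 CPM in sham. The 7 osteoblast markers summed to 525 to 2288 CPM after amputation and 121 to 412 CPM in sham, with 2 of 7 called higher, and the 5 Schwann cell markers to 308 to 454 CPM after amputation and 508 to 1232 CPM in sham, with 3 of 5 called lower. The 6 macrophage markers summed to 727 to 871 CPM after amputation and 194 to 251 CPM in sham, with 6 of 6 called higher, and the 5 adipocyte markers to 160 to 289 CPM after amputation and 764 to 1371 CPM in sham, with 5 of 5 called lower. Over all tested genes 20.4% were called higher and 12.3% lower. The part of these cell types in the results was not tested. In bulk tissue a change in the number of cells of a type cannot be told apart from a change in RNA per cell.

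Of the 8 members, 4 rose after amputation (Bmp1, Tll1, Pcolce and Adamts2), Pcolce2 fell, and Tll2, Adamts3 and Adamts14 were not called. Genes were called by edgeR's quasi-likelihood test, with p-values adjusted by Benjamini-Hochberg across every gene tested and a threshold of 0.05. By this rule 20.4% of the 14561 tested genes were higher and 12.3% lower. The 3 amputation libraries lay above all sham libraries for 4 members, and below them for 1. Over all tested genes 28.7% lay wholly above and 26.1% wholly below. The median log2 fold change of the members was 1.39, against -0.02 for all tested genes. The plot of CPM by library shows the members on a common scale.

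**Figure D1:**
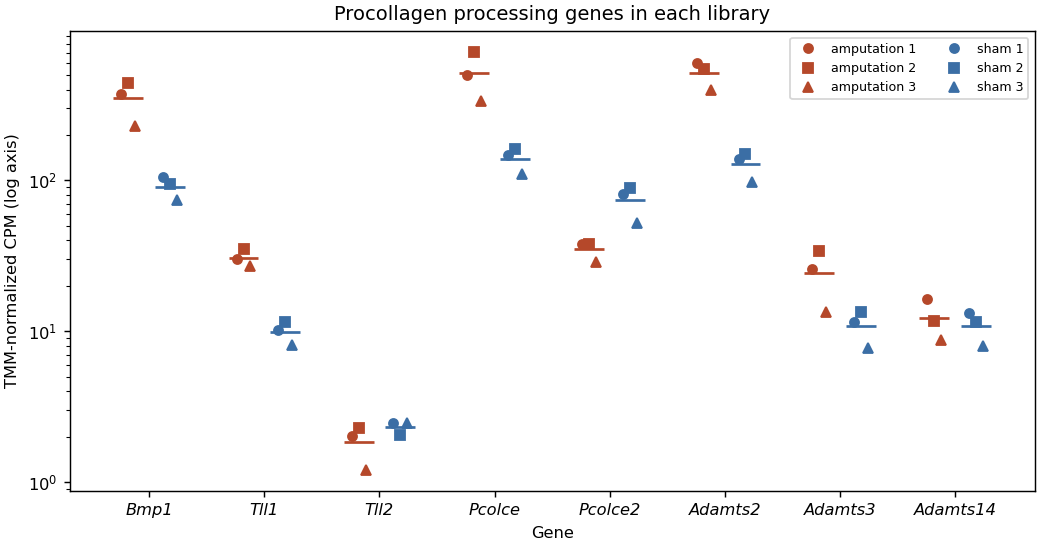
TMM-normalized CPM (log axis) of the 8 genes in amputation 1 to 3 (red) and sham 1 to 3 (blue); horizontal lines are group means. The groups are apart for Bmp1, Tll1, Pcolce, Pcolce2 and Adamts2, and overlap for Tll2, Adamts3 and Adamts14.

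Among the tolloid proteinases, Bmp1, the main procollagen C-proteinase gene, had 377, 439.9 and 231 CPM in amputation 1 to 3, against 105, 94.0 and 74.0 CPM in sham 1 to 3. Each amputation library lay above each sham library, and amputation 3 was the lowest of its group. Bmp1 rose 3.84-fold (log2 1.94 ± 0.29, SE; 349 ± 107 against 90.9 ± 15.6 CPM, SD, n = 3 each; adjusted p = 0.00675). Tll1, a second gene for an enzyme with C-proteinase activity, had 29.9, 35.0 and 26.9 CPM after amputation, against 10.2, 11.6 and 8.09 CPM in sham. Its groups were apart as well, and it rose 3.08-fold (log2 1.62 ± 0.18, SE, n = 3 each; adjusted p = 0.00397). Tll2, the remaining tolloid gene, was near the lower end of measurement, with 63, 68 and 36 counts after amputation and 60, 54 and 65 counts in sham. These came to 2.03, 2.29 and 1.21 CPM after amputation, and 2.45, 2.04 and 2.48 CPM in sham, with overlapping groups. Its log2 fold change was -0.33, with a 95% interval from -1.04 to 0.37 (adjusted p = 0.391), so a change of the size seen for Bmp1 or Tll1 lies outside the interval.

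The enhancer genes moved in opposite directions. Pcolce had 500.1, 708 and 338 CPM in amputation 1 to 3, against 147, 161 and 111 CPM in sham 1 to 3. All amputation libraries lay above all sham libraries, and Pcolce rose 3.69-fold (log2 1.88 ± 0.32, SE; 515 ± 186 against 139.7 ± 26.2 CPM, SD, n = 3 each; adjusted p = 0.00947). Pcolce2 had 37.9, 38.0 and 28.8 CPM after amputation, against 81.5, 89.4 and 52.6 CPM in sham. Every amputation library lay below every sham library, and Pcolce2 was 2.14-fold lower (log2 -1.09 ± 0.23, SE; 34.9 ± 5.31 against 74.5 ± 19.4 CPM, SD, n = 3 each; adjusted p = 0.0167). This call rested near the threshold: without amputation 1, sham 1 or sham 2 the log2 fold changes were -1.16, -1.03 and -0.97, with adjusted p-values of 0.0506, 0.0594 and 0.0625.

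Of the N-proteinases, 1 of 3 was called. Adamts2, the principal N-proteinase of type I procollagen, had 602, 549.7 and 399 CPM after amputation, against 138, 149 and 97.4 CPM in sham. The groups were apart and the gene rose 4.04-fold (log2 2.01 ± 0.26, SE; 517 ± 106 against 128 ± 27.1 CPM, SD, n = 3 each; adjusted p = 0.00529). Adamts3, which cuts procollagen II and, with CCBE1, activates the lymphatic growth factor VEGF-C, had 26.0, 34.1 and 13.5 CPM after amputation, against 11.5, 13.5 and 7.75 CPM in sham. Amputation 1 and 2 lay above all sham libraries, while amputation 3 lay level with sham 2. Its log2 fold change was 1.17 ± 0.37 (95% interval 0.28 to 2.06) and missed the threshold (adjusted p = 0.0525). With the replicate number as a block it was called (log2 1.11, adjusted p = 0.0141), as it was without amputation 3 (1.46, adjusted p = 0.00115) and in DESeq2 (1.18, adjusted p = 0.0134). Adamts14, the remaining N-proteinase gene of this type, had 16.3, 11.6 and 8.76 CPM after amputation, against 13.3, 11.5 and 7.94 CPM in sham. The groups overlapped throughout, with a log2 fold change of 0.16 (95% interval -0.53 to 0.86, adjusted p = 0.67).

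**Figure D2:**
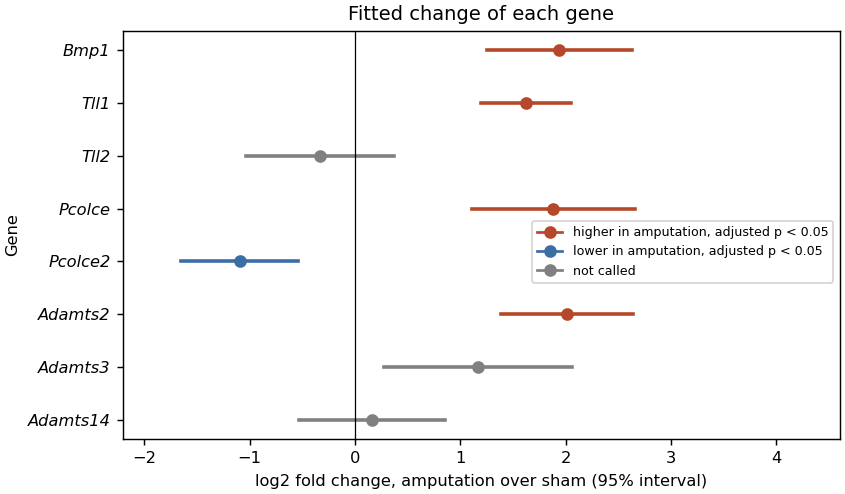
Log2 fold change of amputation over sham for each gene, with 95% intervals from edgeR's quasi-likelihood fit (n = 3 libraries per group); colours mark the call. Adamts2, at 2.01, lies farthest to the right and Pcolce2, at -1.09, farthest to the left.

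Skeletal muscle RNA also differed among the libraries. It was lowest in amputation 1 and 2, where Bmp1, Tll1, Pcolce and Adamts2 were highest. Pcolce2 was higher in sham, where muscle RNA was higher, yet lowest of all in amputation 3. Amputation 3, with 16.8% of counts from muscle genes, was the lowest amputation library for 8 of 8 members. Sham 3, with the largest muscle share of all, was the lowest sham library for 7 of 8. The share of all tested genes with this order was not counted, so it is not a result about the members. The summed tendon, chondrocyte, osteoblast and fibroblast markers were also lowest in these libraries of each group. Those of macrophages, adipocytes, endothelium and Schwann cells did not follow this order. When the summed muscle level entered the fit as a covariate, the log2 fold changes were 1.29 for Bmp1, 1.38 for Tll1, 1.17 for Pcolce, 1.64 for Adamts2 and -1.40 for Pcolce2, and all 5 calls were kept. That fit called 9 of the 35 muscle genes higher and 4 lower. Muscle level also differed between the groups, so the fit cannot fully separate muscle from group. Adamts3 stood at 0.21 in that fit (adjusted p = 0.633) and Adamts14 at -0.24. Without amputation 3 the values were 2.17 for Bmp1, 1.71 for Tll1, 2.11 for Pcolce, 2.17 for Adamts2 and -0.97 for Pcolce2, again all called. The part of muscle RNA in the lower levels of amputation 3 was not tested.

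Whether members changed unequally was asked with the log2 ratio of their counts in each library, which does not depend on how libraries are scaled. The pairs were paralogues and, across roles, Bmp1 against Pcolce and against Adamts2. The exact two-sided permutation test over 3 against 3 libraries cannot give a p under 0.1, and p-values were adjusted by Benjamini-Hochberg over the 6 ratios compared. The Pcolce/Pcolce2 ratio differed most, at 3.72, 4.22 and 3.55 (log2) in amputation 1 to 3, against 0.85, 0.85 and 1.07 in sham 1 to 3. The difference was 2.91 on the log2 scale (exact permutation p = 0.1, adjusted p = 0.2), with the groups far apart. Per length, Pcolce FPKM were 12.5, 17.6 and 11.1 times those of Pcolce2 after amputation, against 1.70, 1.71 and 1.99 times in sham. The Adamts2/Adamts14 ratio was higher by 1.86 (log2; groups apart, exact permutation p = 0.1, adjusted p = 0.2) and the Adamts2/Adamts3 ratio by 0.91 (groups apart, exact permutation p = 0.1, adjusted p = 0.2). In contrast, the log2 ratios of Bmp1 to Pcolce lay between -0.69 and -0.41 after amputation and between -0.78 and -0.49 in sham, a difference of 0.07 (exact permutation p = 0.6). Bmp1/Adamts2 differed by -0.11 (exact permutation p = 0.6) and Bmp1/Tll1 by 0.28 (exact permutation p = 0.3), with overlapping groups. None of the 6 ratios could pass the threshold used for calls, because the exact test cannot give a p under 0.1. The contrast between the ratios therefore rests only on whether the groups overlapped. Overlap in these 3 does not show that the genes changed alike. Within replicate numbers the Bmp1/Pcolce ratio was higher after amputation in 3 of 3 pairs, by 0.08, 0.09 and 0.03 (log2; exact paired permutation p = 0.25, the smallest that 3 pairs allow), while Bmp1/Tll1 was higher in 2 of 3 pairs and Bmp1/Adamts2 in 1 of 3.

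The make-up of the family was compared by FPKM, which divides counts by gene length (1866 bases for Pcolce2 to 11179 for Tll2 in the authors' values). GENCODE M21 exonic bases differ from these lengths in both directions, at 4625 for Pcolce2 and 4732 for Tll2. Shares and ranks between genes therefore depend on the lengths used. The 8 genes summed to 486, 537 and 282 FPKM after amputation, against 168, 177 and 113 FPKM in sham. Pcolce held the largest share, 59.7 ± 4.09% after amputation and 46.7 ± 1.35% in sham (SD, n = 3 each). Pcolce2 held 4.48 ± 0.78% after amputation and 26.0 ± 1.67% in sham. Bmp1 held 16.6 ± 0.75% and Adamts2 16.8 ± 2.87% after amputation, against 12.4 ± 1.18% and 11.5 ± 0.11% in sham. The remaining 4 genes each held between 0.0365% and 1.56% of the sum in every library.

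**Figure D3:**
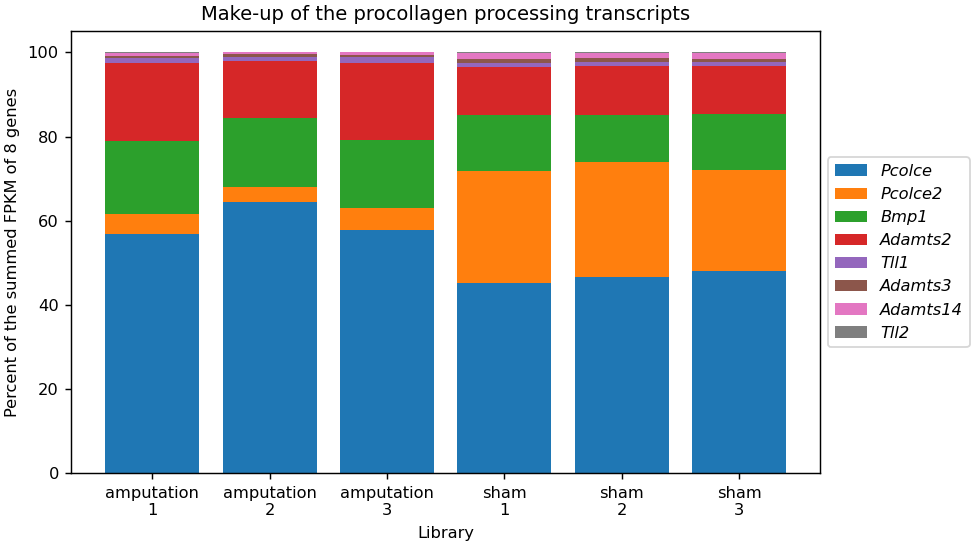
Share of the summed FPKM of the 8 genes held by each gene, in percent, in amputation 1 to 3 and sham 1 to 3. The Pcolce2 segment spans 3.65% to 5.21% after amputation and 24.2% to 27.4% in sham.

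After amputation the mean levels ran from Pcolce (262 ± 92.6 FPKM) through Bmp1 (72.6 ± 23.7), Adamts2 (71.5 ± 19.1), Pcolce2 (18.8 ± 3.84), Tll1 (4.52 ± 0.65), Adamts3 (2.97 ± 1.27) and Adamts14 (2.40 ± 0.93) to Tll2 (0.166 ± 0.055). In that order Bmp1 overlapped Adamts2, and Adamts3 overlapped both Tll1 and Adamts14. In sham the order was Pcolce (70.9 ± 14.9 FPKM), Pcolce2 (40.1 ± 11.3), Bmp1 (18.8 ± 3.76), Adamts2 (17.6 ± 4.13), Adamts14 (2.11 ± 0.58), Tll1 (1.47 ± 0.29), Adamts3 (1.32 ± 0.38) and Tll2 (0.208 ± 0.021). There Bmp1 overlapped Adamts2, and Adamts14, Tll1 and Adamts3 each overlapped the other two (all SD, n = 3). These overlaps are between ranges over libraries. Within each sham library the FPKM order was Adamts14, Tll1, Adamts3, and Tll1 lay above Adamts3 in each amputation library, with the authors' gene lengths. By FPKM Pcolce2 was thus the fourth most abundant member after amputation and the second in sham. By CPM, which is not divided by length, it was the fourth in both groups.

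The fibrillar procollagens are the main substrates of these enzymes. Of 11 such genes, 10 were higher, against 20.4% of all tested genes, and Col5a3, a minor type V chain, was not called. The median log2 fold change was 3.38, against 1.39 for the processing genes and -0.02 for all tested genes, and the difference between the lists was not tested. Col1a1, a chain of type I collagen, had 64570, 89920 and 34500 CPM after amputation, against 5490, 4878 and 2149 CPM in sham, and rose 15.1-fold (log2 3.92 ± 1.22, SE, adjusted p = 0.04998). Its call was lost with the replicate block (3.92, adjusted p = 0.0583) and with a minimum of 10 counts in all 3 libraries of a group (3.91, adjusted p = 0.0551). Col1a2, the other type I chain, rose 9.54-fold (log2 3.25 ± 0.95, adjusted p = 0.042), and Col3a1, the type III chain of young fibrils, by 3.70 ± 0.71 on the log2 scale (adjusted p = 0.0131). The cartilage collagens Col11a1 (log2 4.98 ± 0.63) and Col2a1 (8.70 ± 1.13) and the type V chain Col5a2 (3.64 ± 0.49) had the smallest p-values of the list. Without amputation 1, sham 1, sham 2 and sham 3 the list held 6, 6, 4 and 5 higher genes, and neither Col1a1 nor Col1a2 was called in any of these fits, nor without amputation 2. The log2 fold changes stayed about as large in these 5 fits, at 3.57 to 4.16 for Col1a1 and 2.91 to 3.48 for Col1a2. Col3a1 was not called without sham 1, sham 2 or sham 3 (3.64, 3.83 and 3.59).

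The processing genes were also set against the summed level of their main substrates. The 11 fibrillar procollagens summed to 26610, 30650 and 12140 FPKM in amputation 1 to 3, against 2281, 2124 and 1044 FPKM in sham 1 to 3. Per 1000 FPKM of these, Bmp1 stood at 3.19, 2.86 and 3.73 FPKM after amputation, against 9.705, 9.22 and 14.1 FPKM in sham. Pcolce stood at 10.4, 11.3 and 13.4 after amputation, against 33.4, 38.8 and 51.8 in sham, and Adamts2 at 3.38, 2.37 and 4.27, against 8.47, 9.68 and 12.3. Pcolce2 had the widest gap, at 0.834, 0.640 and 1.21 after amputation, against 19.6, 22.8 and 26.1 in sham. Adamts3 stood at 0.127 to 0.129 after amputation and 0.620 to 0.862 in sham. Every amputation library lay below every sham library for the 7 processing genes so compared (Tll2, with few counts, was left out). The same held for 97.1% of all 14561 tested genes, because the summed procollagen level differed so much between the groups, so this count is not a result about the processing genes. The ratios are given as description, with no test.

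**Figure D4:**
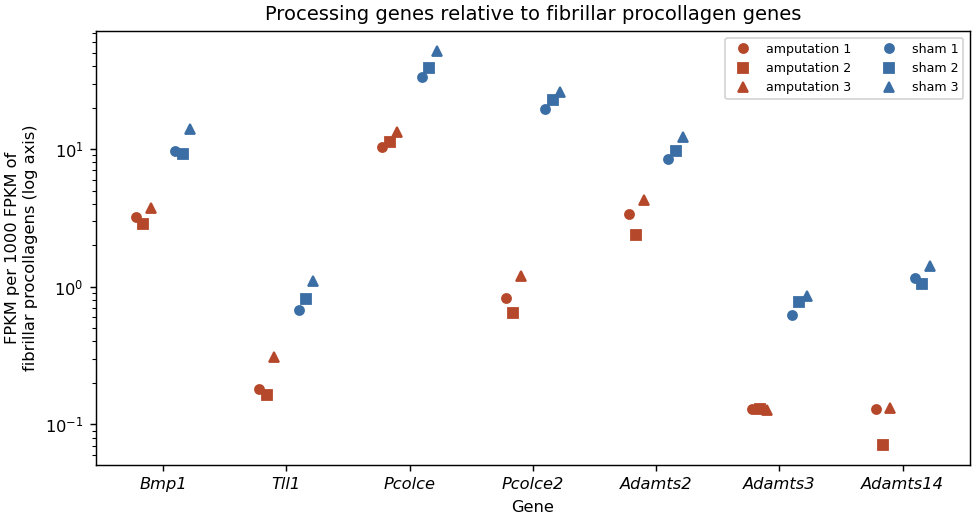
FPKM of each processing gene per 1000 FPKM of the 11 fibrillar procollagen genes (log axis), in amputation 1 to 3 (red) and sham 1 to 3 (blue). For the 7 genes shown every amputation library lies below every sham library, as for 97.1% of all tested genes.

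Tolloid proteinases also cut other proteins of the matrix. Of 15 such genes, 7 were higher, 3 lower and 5 not called, with a median log2 fold change of 0.80. Among all tested genes 20.4% were higher and 12.3% lower. Loxl1, a lysyl oxidase that crosslinks elastin, rose 5.59-fold (log2 2.48 ± 0.22, SE, adjusted p = 0.00317), and Bgn, the small proteoglycan biglycan, 8.80-fold (log2 3.14 ± 0.50, adjusted p = 0.0077). Lama3, a laminin chain of epithelial basement membranes, was 2.68-fold lower (log2 -1.42 ± 0.26, adjusted p = 0.0108). The higher count was 2, 2, 3 and 2 without amputation 1, sham 1, sham 2 and sham 3, and 4 with the muscle covariate. The lower count was 1 in each of those fits and without amputation 2.

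Among 7 matrix scaffolds and inhibitors linked to these proteinases, 4 were higher, against 20.4% of all tested genes, and 3 not called (median log2 fold change 1.70). Postn, or periostin, a scaffold that binds BMP1 in the matrix, had 2244, 2576 and 1809 CPM after amputation, against 76.7, 63.0 and 77.0 CPM in sham. It rose 30.6-fold (log2 4.93 ± 0.32, SE, n = 3 each, adjusted p = 0.00238). Each amputation library lay far above each sham library. Olfml3, related to a tolloid scaffold described in Xenopus, rose by 1.93 ± 0.34 on the log2 scale (adjusted p = 0.0103), and Sfrp2, a secreted Frizzled-related protein that binds tolloids, 3.24-fold (log2 1.70 ± 0.37, adjusted p = 0.0185). The count was 2 without amputation 1 or sham 2. Sfrp2 was not called without amputation 1, amputation 2 or sham 2 (1.68, 1.59 and 1.88), nor with the muscle covariate (1.36).

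Tolloids and ADAMTS proteinases are made as inactive precursors that proprotein convertases cut. Of 4 tested genes in this list, Pcsk5 rose 3.37-fold (log2 1.75 ± 0.32, SE, adjusted p = 0.0114) and Furin 2.15-fold (1.10 ± 0.22, adjusted p = 0.0147), while Pcsk6 was 1.53-fold lower (-0.62 ± 0.16, adjusted p = 0.0323) and Pcsk7 was not called. For comparison, 20.4% of all tested genes were higher and 12.3% lower. The meprin genes Mep1a and Mep1b, whose products can also cut procollagens, had too few counts to be tested. Furin was not called without sham 1, sham 2 or sham 3 (1.08, 1.14 and 1.03), nor Pcsk5 without sham 2 (1.78). Pcsk6 was not called without amputation 1, amputation 2, sham 1 or sham 2 (-0.72, -0.52, -0.52 and -0.63), nor with the muscle covariate (-0.56) or in limma on log2(FPKM + 1) and log2(FPKM + 0.1) (-0.57 and -0.61).

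Of 7 genes of VEGF-C activation and lymphatic vessels, 1 was higher and 2 lower (median log2 fold change -0.31), against 20.4% higher and 12.3% lower of all tested genes. The 5 endothelium markers summed to 399 to 663 CPM after amputation and 818 to 968 CPM in sham, with 2 of 5 called lower, and their part in this list was not tested. Ccbe1, the cofactor of ADAMTS3, rose 2.06-fold (log2 1.04 ± 0.15, SE, adjusted p = 0.0063). Prox1, a transcription factor of lymphatic endothelium, was 2.09-fold lower (-1.07 ± 0.19, adjusted p = 0.0109), and Reln, the ADAMTS3 substrate reelin, 2.17-fold lower (-1.11 ± 0.24, adjusted p = 0.0181). The other 4, Vegfd, Flt4, Lyve1 and Vegfc, were not called. Vegfc stood at 7.99, 8.84 and 6.98 CPM after amputation and 9.23, 9.50 and 9.35 CPM in sham. Reln was not called without sham 1 or sham 2 (-0.93 and -1.15), nor with the muscle covariate (-0.83).

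The genes most like the leading member of each role were found over the 6 libraries as those with the smallest root mean square difference of centred log2 CPM, among 11291 genes. Lxn, the carboxypeptidase inhibitor latexin, lay nearest to Pcolce (0.0584), followed by the nucleoside transporter Slc29a1 (0.0676) and Atp8b2 (0.0839). Zdhhc15 (0.0694), Aldh1l2 (0.0727) and Fam109b (0.0738) lay nearest to Bmp1. Adamts7, another ADAMTS proteinase, lay nearest to Adamts2 (0.0876), ahead of Clcn5 (0.116) and Marcksl1 (0.118). These distances describe likeness in 6 libraries only.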

How the data were processed

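Total RNA of 6 mouse Achilles tendon samples (mirVana kit) was depleted of ribosomal RNA and sequenced as stranded TruSeq libraries, per the labels' protocols. The submitters' processing notes name Trimmomatic, HISAT2 and the build GRCm38.p6. The counting program and its strand setting are not given in the sources used here. The deposited count table held raw whole counts per gene. FPKM values, also deposited, are those counts scaled by gene length and library total: the implied length was whole within 0.01 bases for 100% of 15164 genes.

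The count test was run with edgeR 4.0.16 under R 4.3.3 (filterByExpr, TMM, quasi-likelihood test, all 6 libraries). The fit covered 14561 tested genes and left out 7317. Each SE was derived from the log2 fold change and its F statistic. Ratios were tested by exact permutation in scipy 1.17.1, on log2(count + 0.5). Promoters came from RefSeq on GRCm38.p6 and exon overlaps from GENCODE M21. The fit was also run on simulated counts with planted changes. These did not model differences in muscle RNA between libraries, and no result here rests on them.

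Replicate numbers come from the titles. Deviations of same-numbered libraries from their group means correlated at 0.259, 0.13 and 0.409. Libraries of unlike number were not compared and the labels state no pairing, so these values do not show that the samples were paired. The replicate numbers were treated as pairing the samples in an alternative fit only. The closest libraries, sham 1 and 2, had a chi-square per gene of 15.0, far above sampling noise, and were kept apart. The other alternatives were DESeq2 1.42.0 (Wald test or size factors), upper quartile scaling, limma 3.58.1 (voom, or log2(FPKM + 1) and log2(FPKM + 0.1)), other filters, each library left out, and the muscle list as a covariate or left out of library sizes. Ratios within replicate numbers were an alternative chosen after seeing the data.

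The members, lists and alternatives were chosen with earlier results of these data known. The text names all members, the 3 genes of lowest p in each list, the gene of lowest p in the opposite direction if calls went both ways, and Col1a1, Col1a2 and Col3a1. It also names the 3 genes nearest to the most abundant member of each role, among genes with a mean of at least 5 CPM. Col5a3, Pcsk7, Vegfc, Vegfd, Flt4, Lyve1 and the tendon markers not called were named after their values were seen. No protein sequences were used here.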

Additional observations from a re-analysis of the deposited data

How the results depend on the processing

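Bmp1, Tll1, Pcolce and Adamts2 were called higher as reported and in each of the 17 alternatives, with log2 fold changes of 1.29 to 2.17, 1.16 to 1.72, 1.17 to 2.11 and 1.64 to 2.17. Their largest adjusted p-values were 0.0399, 0.0286, 0.0437 and 0.0326. Pcolce2 kept its sign in all 17, at -1.40 to -0.97, and its call in 14, so the count of members called lower was 0 to 1 when a library was left out. Adamts3 ranged from 0.21 to 1.46 and was called in 3 settings. Adamts14 turned negative without amputation 1 (-0.0942), without sham 3 (-0.055) and with the muscle covariate (-0.24), and ranged up to 0.36. Leaving out libraries gave Adamts14 values of -0.0942 to 0.358. The difference between groups in the log2 Bmp1/Pcolce ratio turned negative without amputation 1 (-0.00247) or sham 2 (-0.014). This difference ranged from -0.014 to 0.1367 over the 6 libraries left out. Differences within replicate numbers average to the reported ratio differences.

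Across all genes, leaving out a library gave 1091 to 4212 higher and 436 to 4392 lower calls, the most without amputation 3, against 2968 and 1789. The muscle covariate gave 1568 and 739, and DESeq2's Wald test 2738 lower. Of the 44 context genes, 24 higher and 6 lower calls became 10 to 27 and 2 to 6 when a library was left out, and 3 were lower with the muscle covariate. The replicate block changed the calls of Adamts3 and Col1a1 among the named genes (1.11 and 3.92).

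Shares by counts in place of FPKM favour long genes: Bmp1 held 23.3% after amputation and 19.6% in sham, Pcolce 34.2% and 30.0%, Pcolce2 2.41% and 15.8%, and Adamts2 35.4% and 27.4%. With 3 libraries per group and Tll2 at 36 to 68 counts, small changes of this gene were not detectable. The cause of these changes between settings was not tested.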
